A study of Mus musculus with 8 samples.

Results

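EphB receptors and ephrin-B ligands were examined in the neocortex of mouse pups that lack Bcl11a in the cortical excitatory lineage. The family was taken as 8 genes, the receptor genes Ephb1, Ephb2, Ephb3, Ephb4 and Ephb6 and the ligand genes Efnb1, Efnb2 and Efnb3, matched by exact symbol to the array annotation. Of the 8, 7 were matched, among 19938 genes measured in all. Ephb2 had no probe set with that symbol and is not analysed here. Mutant pups were Bcl11a flox/flox;Emx1 IRESCre/+, and the pups they were compared with were Bcl11a flox/+;Emx1 IRESCre/+, so that all 8 pups carried Cre and at least 1 floxed allele. The controls are therefore heterozygous for Bcl11a wherever Cre acted. Cre is expressed from the Emx1 locus, which is active in the progenitors of cortical excitatory neurons and of many astrocytes, while interneurons, blood vessels and microglia come from other lineages and keep the gene. Layers II to IV were cut out by laser on postnatal day 2 from 4 mutant and 4 control pups, and 1 Affymetrix array was hybridised per pup. The series title names a pathway of Bcl11a and Bcl6 in the developmental death of projection neurons.

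Eph receptors are receptor tyrosine kinases that bind ephrins on the surface of neighbouring cells. Ephrin-B ligands span the membrane and signal back into their own cell through a cytoplasmic tail that binds PDZ and SH2 proteins, so that a contact sends a forward signal into the receptor cell and a reverse signal into the ligand cell. In the developing brain these proteins guide and repel axons, separate cell populations, and organise excitatory synapses on dendrites.

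Bcl11a itself, which checks the labels, averaged 8.63 ± 0.21 in mutant pups and 10.45 ± 0.13 in control pups (SD, n = 4 each, log2 intensity). The mutant and control values did not overlap, with a gap of 1.49 between the groups. The position of this probe set relative to the deleted segment was not analysed here, so the remaining intact transcript is not read from it. Array medians lay between 4.83 and 4.91, and the log base was taken as 2. High Xist was read in 1 mutant and 2 control pups, and 3 Y-linked genes in those arrays read at most 4.31, a value used here as a floor under which a reading may be background. Control 1 stood apart from the other controls on the second principal component and had the lowest array weight, 0.556, against 0.794 to 1.33 in the other arrays. Without it Ephb1 differed by -0.82, Ephb6 by -0.25 and Efnb1 by 0.42 (limma, adjusted p = 4.52e-05, 0.0793 and 0.0157).

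In the mutant layers 2 receptor genes fell and 1 ligand gene rose. Ephb1 fell 1.70-fold, Ephb6 fell 1.24-fold and Efnb1 rose 1.36-fold, whereas Ephb3, Ephb4, Efnb2 and Efnb3 did not pass the test. A gene is said to have risen or fallen where limma's moderated test gave a Benjamini-Hochberg adjusted p under 0.05 over all 19938 genes. By this rule 3 of the 7 family members were called, 2 lower and 1 higher in the mutant, against 4.15% of all genes, 1.79% lower and 2.36% higher. The mutant and control values did not overlap for the same 3 members, and for 9.25% of all genes. The estimated differences of all 4 measured receptors were below 0 and those of all 3 ligands were above 0, with intervals that include 0 for Ephb4 and Efnb2. The median difference of all genes was 0.02 on the log2 scale.

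The sequence upstream of the gene start is shown for the 3 members that changed, as 250 bases from RefSeq on build GRCm38.p6, written 5′ to 3′ on the strand of the gene. Capitals mark CCAAT (or ATTGG on the other strand) and GGGCGG (or CCGCCC), the CCAAT and GC boxes of many promoters. Ephb1 lies at chr9:102354694-102354943 on the minus strand, Ephb6 at chr6:41605261-41605510 on the plus strand and Efnb1 at chrX:99135811-99136060 on the plus strand.
Ephb1: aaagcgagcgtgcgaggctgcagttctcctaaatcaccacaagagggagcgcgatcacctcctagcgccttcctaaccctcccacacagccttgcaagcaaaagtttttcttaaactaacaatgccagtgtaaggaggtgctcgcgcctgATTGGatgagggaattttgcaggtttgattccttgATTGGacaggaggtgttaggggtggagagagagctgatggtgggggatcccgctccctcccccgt
Ephb6: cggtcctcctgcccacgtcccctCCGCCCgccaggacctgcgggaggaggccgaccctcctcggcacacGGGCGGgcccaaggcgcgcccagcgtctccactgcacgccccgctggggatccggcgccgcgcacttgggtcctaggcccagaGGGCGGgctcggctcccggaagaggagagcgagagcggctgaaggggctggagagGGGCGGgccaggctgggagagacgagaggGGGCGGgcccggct
Efnb1: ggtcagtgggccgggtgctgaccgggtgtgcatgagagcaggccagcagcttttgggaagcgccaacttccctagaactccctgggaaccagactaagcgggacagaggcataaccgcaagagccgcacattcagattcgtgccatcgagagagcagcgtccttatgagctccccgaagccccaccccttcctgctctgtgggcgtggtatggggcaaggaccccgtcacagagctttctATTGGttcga
The window of Ephb1 held 2 CCAAT boxes and no GC box and that of Efnb1 held 1 CCAAT box, while that of Ephb6 held 5 GC boxes and no CCAAT box. The G and C content was 54.0% for Ephb1, 76.8% for Ephb6 and 60.0% for Efnb1. Of 32851 such windows of the mouse genome, 33.8% held a CCAAT box and 32.7% a GC box on either strand. The letters TGACCA, a motif bound by human BCL11A, and TTCCTNGAA, a motif of BCL6, were searched on both strands and were in none of the windows of the 7 family members that had one. They were in 11.4% and 1.31% of all windows, and TGACCA can overlap a CCAAT box. A window for Efnb3 was not used here.

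Ephb1 encodes a receptor that binds ephrin-B ligands and is known in mice for turning retinal axons back at the optic chiasm. Its log2 intensity was 6.60, 6.64, 6.43 and 6.58 in the 4 mutant pups, against 7.16, 7.52, 7.28 and 7.34 in the 4 control pups. Every mutant value lay below every control value, with a gap of 0.53 between the groups that is wider than the SD within either (0.09 in mutants and 0.15 in controls). The log2 difference, mutant minus control, was -0.77 with a standard error (SE) of 0.08 and a 95% interval of -0.94 to -0.59 (limma, adjusted p = 1.03e-04). The exact two-sided permutation p was 0.0286, the smallest that 4 arrays against 4 can give. Only 64 of the 19938 genes had a lower difference. The call held with each array left out in turn, with differences of -0.82 to -0.70.

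Ephb1 was read by 2 probe sets. The brighter one, annotated to the RefSeq transcripts of the gene, gave the values above. The dimmer one, annotated to a single cDNA clone, read 3.92, 3.83, 3.89 and 3.93 in the mutant pups and 3.98, 3.92, 3.91 and 3.88 in the control pups, all under the floor of 4.31. Its difference was -0.03 (SE 0.06, limma over 21789 probe sets, adjusted p = 0.898). Since every reading lay under the floor, this probe set could show neither a change nor its absence, and no comparison of the 2 is drawn. When the 2 were averaged, the one under the floor included, the fall of Ephb1 was -0.40 in place of -0.77 (limma, adjusted p = 0.00185).

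Ephb6 encodes a receptor whose kinase domain is catalytically inactive. It read 8.23, 8.24, 8.13 and 8.29 in mutant pups, against 8.73, 8.58, 8.43 and 8.42 in control pups. The groups did not overlap, but the gap of 0.13 was about the size of the control SD of 0.15. The difference was -0.31 (SE 0.08, 95% interval -0.48 to -0.15, limma, adjusted p = 0.0388, exact permutation p = 0.0286). This call was lost without any 1 mutant, without control 1 and without control 2 (adjusted p from 0.0645 to 0.111), and with inferred sex as a covariate (adjusted p = 0.0710).

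Ephb3, a receptor that acts with Ephb2 in forming the corpus callosum of mice, was at 5.36, 5.56, 5.31 and 5.47 in mutant pups, against 5.54, 5.64, 5.54 and 5.67 in control pups. Mutant 2 lay above controls 1 and 3, and the difference of -0.17 (SE 0.07) did not pass (limma, adjusted p = 0.286). Ephb4, the receptor of ephrin-B2 on veins, was at 5.41, 5.34, 5.47 and 5.42 in mutant pups, against 5.62, 5.47, 5.44 and 5.59 in control pups. Only mutant 3 overlapped the controls, and the difference of -0.12 (SE 0.07, 95% interval -0.26 to 0.02) did not pass (limma, adjusted p = 0.465).

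**Figure D1:**
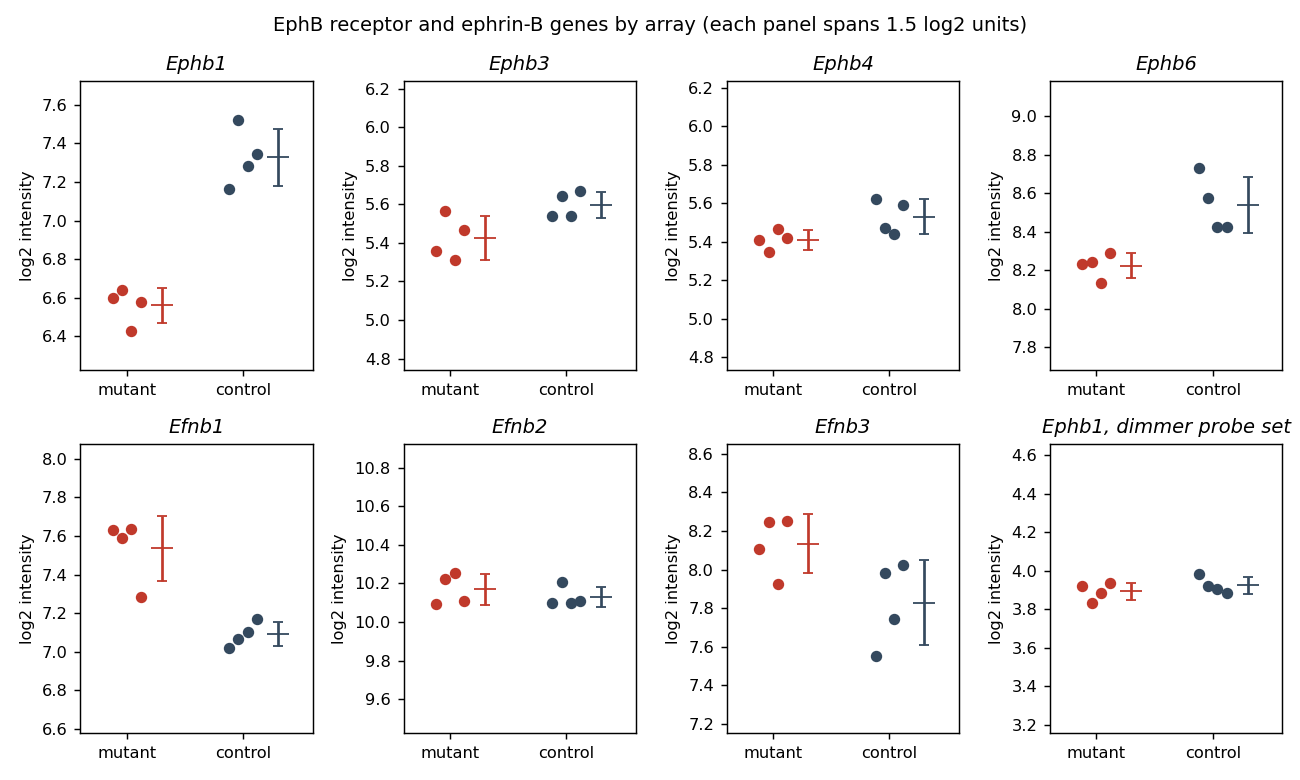
Log2 intensity of each measured EphB receptor and ephrin-B gene in the 4 mutant (left) and 4 control pups (right), with bars for the mean ± SD. Panels span the same 1.5 log2 units at different heights. The groups are apart for Ephb1, Ephb6 and Efnb1, and the dimmer Ephb1 probe set, at 3.83 to 3.98, lies under the floor of 4.31.

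Efnb1 encodes ephrin-B1, an X-linked ligand that in mice is found in cortical progenitors and affects how sister neurons spread. It read 7.63, 7.59, 7.64 and 7.29 in mutant pups, against 7.02, 7.07, 7.10 and 7.17 in control pups. All mutant values lay above the controls, and mutant 4 was the closest to them. The difference was 0.45 (SE 0.08, 95% interval 0.27 to 0.63, limma, adjusted p = 0.00666, exact permutation p = 0.0286). Since the gene is on the X chromosome, the arrays were also read by Xist. In high-Xist arrays the 1 mutant read 7.64, against 7.02 and 7.10 in the controls. In the others the mean was 7.50 in 3 mutants and 7.12 in 2 controls. With inferred sex as a covariate the difference was 0.45 (limma, adjusted p = 0.0150), and the call held with each array left out in turn, with differences of 0.41 to 0.53. With unmoderated variances it was lost (adjusted p = 0.0967).

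Efnb2 encodes ephrin-B2, a ligand of arteries and of neurons. It read 10.09, 10.22, 10.26 and 10.11 in mutant pups, against 10.10, 10.21, 10.10 and 10.11 in control pups. The groups overlapped fully, and the 95% interval of the difference ran from -0.10 to 0.18, a ratio of mutant to control of 0.932 to 1.13 (limma, adjusted p = 0.881). Efnb3 encodes ephrin-B3, which in mice repels corticospinal axons at the midline of the spinal cord. It read 8.11, 8.25, 7.93 and 8.25 in mutant pups, against 7.55, 7.98, 7.74 and 8.03 in control pups. Controls 2 and 4 lay above mutant 3. The difference of 0.31 (SE 0.11, 95% interval 0.07 to 0.54) did not pass (limma, adjusted p = 0.171), and it was 0.22 without control 1, the lowest value.

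Whether members of a class responded differently was tested on the log2 difference between 2 genes within each array, over 9 pairs (6 of receptors and 3 of ligands). The response of Ephb1 was below that of Ephb3 by 0.59, below that of Ephb4 by 0.65 and below that of Ephb6 by 0.45 (SE 0.06, 0.13 and 0.12). For these 3 pairs mutant and control arrays did not overlap, with an exact permutation p of 0.0286 in each (two-sided, adjusted p = 0.0643 over the 9 pairs). The response of Efnb1 exceeded that of Efnb2 by 0.41 (SE 0.09, exact permutation p = 0.0286, adjusted p = 0.0643). Efnb1 and Efnb3, both with higher estimates in the mutant, differed by 0.14 (SE 0.17, exact permutation p = 0.486). The 3 pairs of Ephb1 and the pair of Efnb1 and Efnb2 were at the smallest p that 4 arrays against 4 allow, and 4 such pairs among 9 cannot have an adjusted p below 0.0643 whatever the size of the difference. The other 5 pairs had larger p. With the probe sets of Ephb1 averaged, the one under the floor included, its response was below that of Ephb6 by 0.09 (exact permutation test, adjusted p = 0.478). Averaging with readings that could show no change draws the response of Ephb1 toward none.

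The EphA receptors and ephrin-A ligands, the sister class whose ligands are held by a lipid anchor, were set beside the family. The median difference was -0.12 over the 7 EphB and ephrin-B genes, against -0.02 over 14 EphA and ephrin-A genes and 0.02 over all genes. The -0.12 pools opposite directions, as the median was -0.24 over the 4 EphB receptors and 0.31 over the 3 ephrin-B ligands. Of those 14, 2 fell and 12 did not pass, beside 1.79% of all genes called lower and 2.36% called higher. The members that fell were Efna5 (-0.87, SE 0.17, limma, adjusted p = 0.00777) and Epha3 (-0.39, SE 0.10, adjusted p = 0.0355). Epha3 did not pass when mutant 1, 2 or 4, or control 2, 3 or 4, was left out (adjusted p from 0.0780 to 0.108). Ephrin-A5, the product of Efna5, is known to bind EphB2 across the classes, and EphA4 to bind ephrin-B2 and ephrin-B3. Efna5 read 6.99, 6.12, 6.29 and 6.25 in mutant pups, against 7.51, 7.45, 7.10 and 7.07 in control pups, and Epha4 differed by -0.17 (SE 0.07, limma, adjusted p = 0.250). Among the ligands of both classes measured, Efnb1 rose and Efna5 fell.

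**Figure D2:**
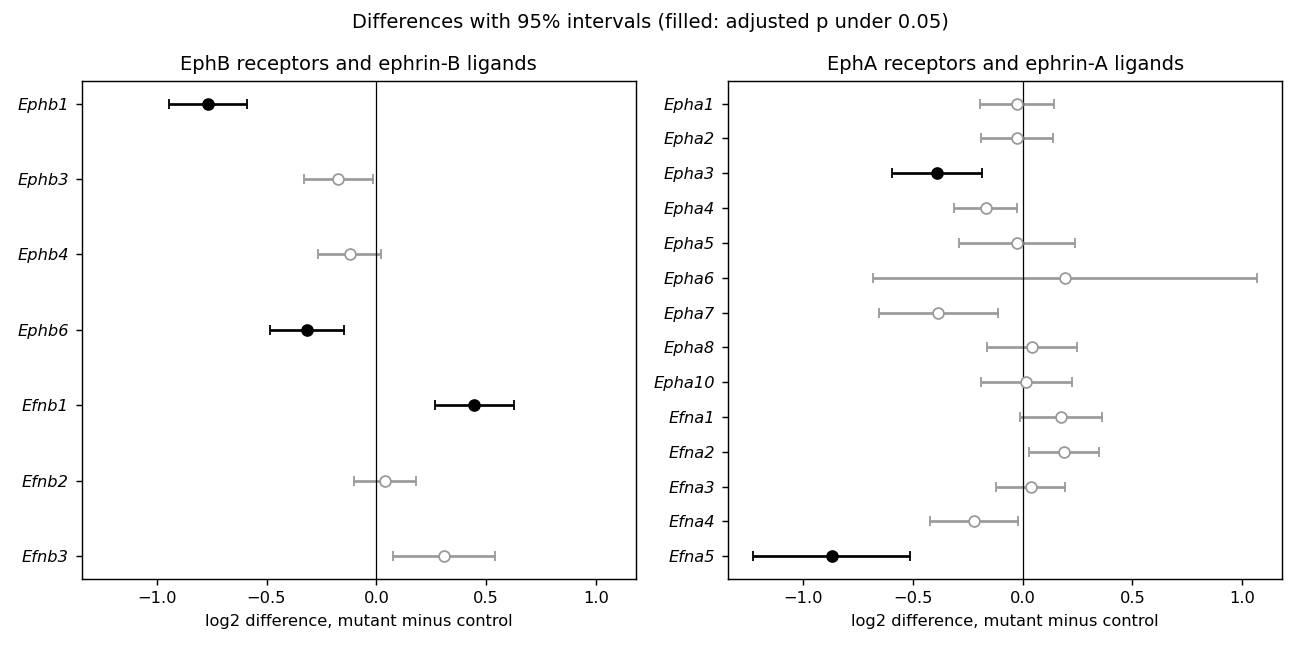
Log2 difference, mutant minus control, with 95% intervals from limma for 7 EphB and ephrin-B genes (left) and 14 EphA and ephrin-A genes (right); filled points passed an adjusted p of 0.05. Estimates of the EphB receptors lie left of 0 and those of the ephrin-B ligands right of it, from -0.77 for Ephb1 to 0.45 for Efnb1.

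Genes of the proteins that carry the signals were then read. The list of ephrin-B reverse signalling, made of adaptors and PDZ proteins, had 19 measured genes. Of these, Rgs3 fell by the brighter of its 2 probe sets and 18 did not pass (median difference -0.01), against 4.15% of all genes called. A PDZ-containing form of RGS3 binds the ephrin-B tail and limits signalling by G protein-coupled receptors. Rgs3 read 6.66, 6.39, 6.50 and 6.78 in mutant pups, against 7.70, 7.30, 7.16 and 7.36 in control pups, so that the groups were apart. The difference was -0.80 (SE 0.11, limma, adjusted p = 8.44e-04). A second, dimmer probe set of Rgs3, annotated to a partly different set of its transcripts, differed by -0.14 (SE 0.09, limma over 21789 probe sets, adjusted p = 0.554), and the mean of both by -0.47 (adjusted p = 0.0128). Where in the genome each probe set lies was not analysed here, so which of them reads Rgs3 itself was not tested. The fall is that of the brighter probe set, and the dimmer one did not pass. The call was lost with unmoderated variances (adjusted p = 0.0723).

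The other lists held no called gene by limma. Of 27 genes of EphB forward signalling (among them exchange factors, Src-family kinases and adaptors) 0 passed, with 2 higher and 4 lower at an unadjusted p under 0.05 and a median of -0.03. Of 12 synaptic partners of EphB receptors 0 passed, with 5 higher and 0 lower before adjustment and a median of 0.04. Of 12 genes of shedding and turnover 0 passed, with 1 higher and 3 lower before adjustment and a median of -0.12. The share of all genes at an unadjusted p under 0.05 is not given here. The counts before adjustment are therefore not read as a lean of any list.

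Markers of other cells were read in the same arrays, since in bulk tissue fewer cells of a type and less RNA per cell cannot be told apart. The counts of the marker lists stand beside 4.15% of all genes called, 1.79% lower and 2.36% higher. Of 9 markers of upper-layer neurons 5 fell (Cux1, Cux2, Pou3f2, Pou3f3 and Mdga1) and 4 did not pass (median -0.35). Pou3f3 no longer passed when mutant 1, 3 or 4, or control 2 or 3, was left out (limma, adjusted p from 0.0584 to 0.0935). The log2 of their summed intensity was 12.25 to 12.47 in mutant pups and 12.55 to 12.69 in control pups. Of 10 markers of deep-layer neurons Ldb2 and Crim1 rose, Ntsr1 fell and 7 did not pass (median 0.17, summed log2 intensity 11.84 to 12.13 in mutants and 11.12 to 11.65 in controls). Both sums moved without overlap, as did Ephb1, Ephb6 and Efnb1, and their part in those differences was not tested. Of 11 interneuron markers Dlx1 and Npy fell and 9 did not pass (median -0.22, summed log2 intensity 10.71 to 10.81 in mutants and 11.13 to 11.19 in controls), and their part was not tested either. The excitatory neuron markers, which check the tissue, were all above the floor: of 7, Neurod6 rose, Emx1 and Slc17a6 fell and 4 did not pass (summed log2 intensity 12.56 to 12.65 in mutants and 12.29 to 12.43 in controls). The call of Emx1, the locus that carries Cre, did not hold when mutant 2, 3 or 4, or control 4, was left out (limma, adjusted p from 0.0587 to 0.0891).

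For Ephb4 and Efnb2, genes of veins and arteries, the vascular markers are of interest. Of 11 endothelial markers 0 passed by limma, with 0 higher and 3 lower at an unadjusted p under 0.05 (median -0.11). Counts before adjustment lack the share of all genes beside them and are not read as a lean. Their summed log2 intensity was 9.81 to 9.98 in mutants and 9.93 to 10.06 in controls. Of 6 arterial markers 0 passed, with 1 higher before adjustment, and 2 of them, Gja5 and Bmx, had means at or under the floor. The arterial sum was 7.73 to 7.90 in mutants and 7.44 to 7.66 in controls. Hey1, the brightest of these markers, differed by 0.43 (SE 0.12, limma, adjusted p = 0.0591), and the others by -0.004 to 0.09. The move of the arterial sum was therefore mostly that of Hey1. Of 8 mural cell markers Abcc9 fell, a call lost without 6 of the 8 arrays left out in turn (all but control 2 and mutant 3, limma, adjusted p up to 0.109; summed log2 intensity 8.87 to 8.97 in mutants and 8.98 to 9.13 in controls). The part of these lists in the values of Ephb4 and Efnb2 was not tested.

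Among the remaining lists, 0 of 9 meningeal, 0 of 8 astrocyte, 0 of 6 oligodendrocyte-lineage, 0 of 8 microglial and 0 of 1 measured erythroid markers passed by limma. At an unadjusted p under 0.05 these held 4, 2, 1, 1 and 0 genes, counts that again lack the share of all genes beside them. Of 10 progenitor markers Vim fell, but not when mutant 2 or 4, or control 2 or 3, was left out (adjusted p up to 0.0814), and of 5 Cajal-Retzius markers Reln fell, but not when mutant 2 or 3, or control 2, 3 or 4, was left out (adjusted p up to 0.101). The summed intensities of these 7 lists overlapped between the groups. For microglia, 4 of the 8 markers, Aif1, C1qb, P2ry12 and Tmem119, had means at or under the floor.

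**Figure D3:**
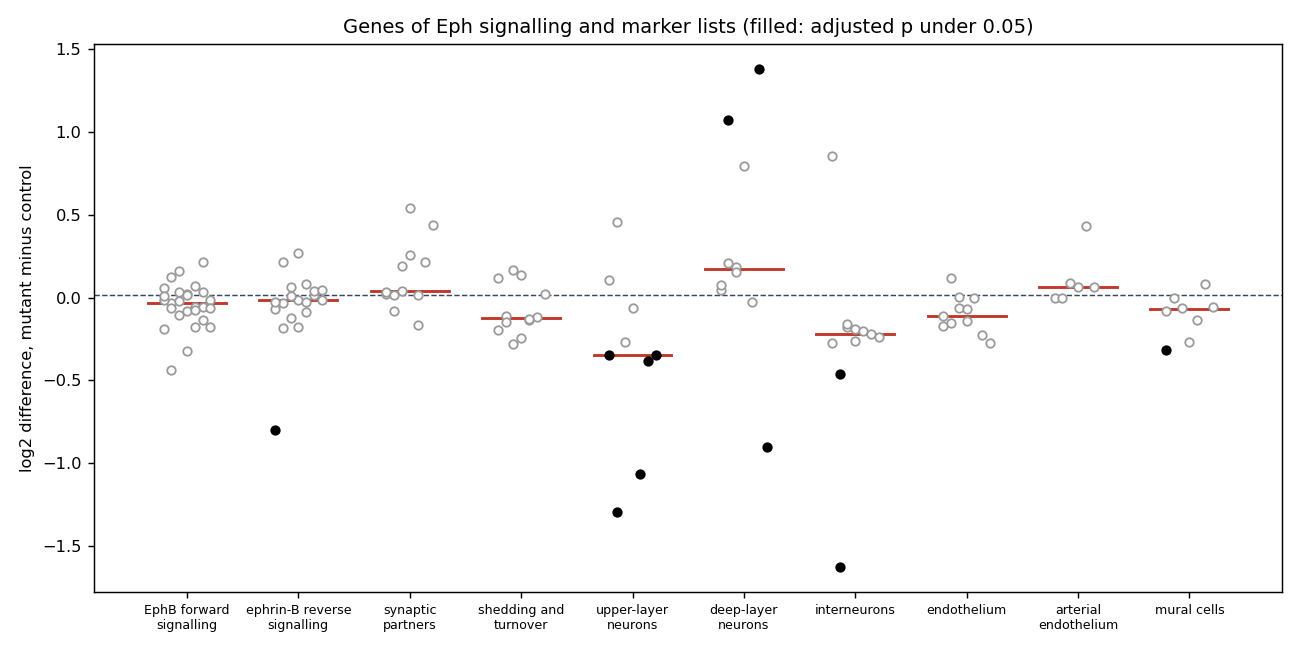
Log2 difference, mutant minus control, of each measured gene in the Eph signalling lists and in 6 marker lists; filled points passed an adjusted p of 0.05, short bars are list medians and the dashed line is the median of all genes, 0.02. Rgs3 is the filled point of the reverse signalling list, at -0.80 by its brighter probe set, while its dimmer one differed by -0.14 and did not pass.

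For each member that changed, the 3 genes of the array with the nearest profile were taken, by the root mean square (RMS) difference over the 8 arrays after each gene was centred on its control mean. Genes near Ephb1 were Vldlr, a reelin receptor (RMS 0.11), Tafa2 (0.11) and Klhl32 (0.13), with differences of -0.71, -0.79 and -0.86. Genes near Ephb6 were Egr1, an activity-induced transcription factor (RMS 0.06), Stra6, a retinol transporter (0.06), and Tmem164 (0.06). Egr1 differed by -0.27 and did not pass (limma, adjusted p = 0.101). Stra6 and Tmem164 fell by 0.28 and 0.35 on the log2 scale, calls that were lost without some single arrays (adjusted p up to 0.115 and 0.0808). Genes near Efnb1 were Abcg2, an efflux transporter (RMS 0.05), Nadk2, a mitochondrial NAD kinase (0.08), and Prps1, a phosphoribosyl pyrophosphate synthetase (0.08), with differences of 0.46, 0.38 and 0.48. Abcg2 read 7.07, 7.09, 7.11 and 6.74 in mutant pups, against 6.51, 6.60, 6.51 and 6.56 in control pups, and mutant 4 was the lowest mutant for Efnb1, Abcg2, Nadk2 and Prps1. The genes were chosen for nearness over these same arrays, so a like value in a single array, as in mutant 4, follows in part from the choice. A small RMS difference also follows from a like mean change, and it says nothing of shared control.

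**Figure D4:**
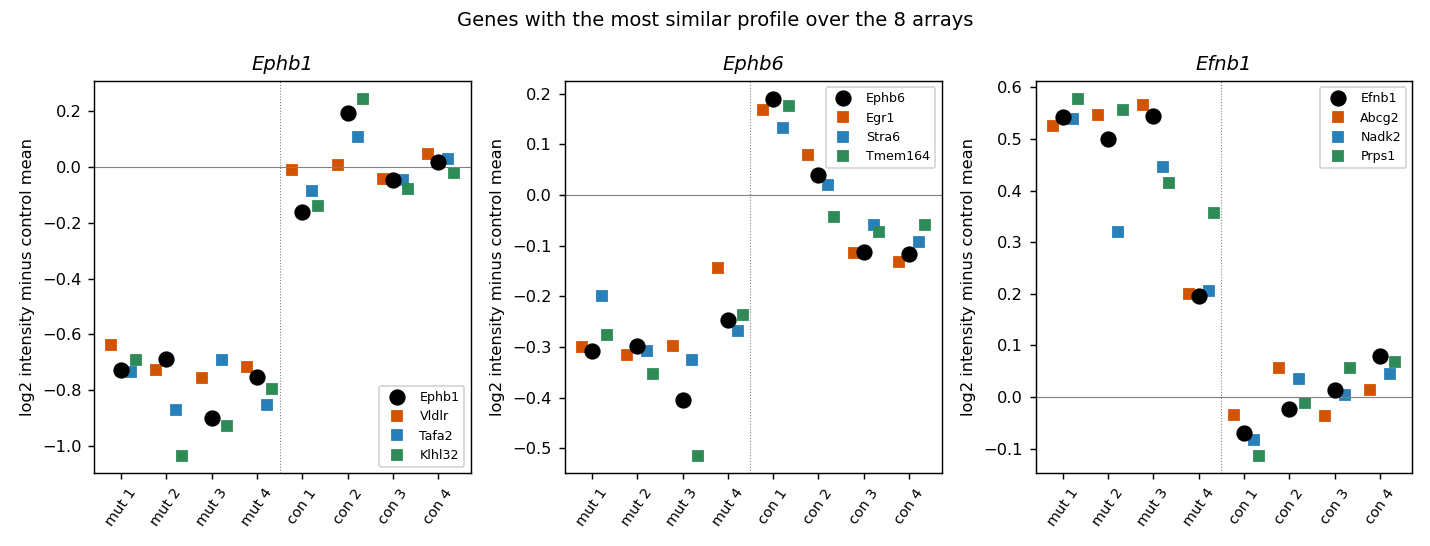
Log2 intensity relative to the control mean in each array (mut, mutant pups; con, control pups) for Ephb1, Ephb6 and Efnb1 (circles) and for the 3 genes nearest to each (squares). Mutant 4 is the lowest of the mutants for Efnb1 (7.29) and for each of its 3 nearest genes, which were chosen on these same arrays.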

How the data were processed

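Total RNA of 8 pups was measured on 1 Affymetrix mouse gene array each. The deposited values are log2 expression of 35556 probe sets. Per the labels, the authors used BRB-ArrayTools; no source used here gives the background correction, normalization, summarisation or log base, and base 2 was assumed. The annotation gave 1 symbol to 21789 probe sets, several to 1621 and none to 12146; probe sets with 1 symbol were kept, the brightest over the 8 arrays for each gene. The test of genotype was that of limma 3.58.1, run in R 4.3.3 (no covariate, 6.91 prior degrees of freedom, Benjamini-Hochberg over 19938 genes). No filter was set on dim genes. The number of arrays limits the precision; the median SE was 0.08. Named genes were the 8 members, Bcl11a, the 3 nearest genes of each changed member, called genes of each pathway list (up to 4, by size), Epha4 and Efna5, and markers on which a result turns. Cblb, Grm5, Grip1, Tiam1, Hey1 and the markers that changed or lay under the floor were named after their values were seen. Members and lists were chosen with earlier results of these data known. The procedure was tested on simulated data. Alternatives covered normalization, dim-gene filters, probe sets, array weights, variances, thresholds, replicate block, inferred sex and omission of each array.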

Additional observations from a re-analysis of the deposited data

Results flagged for a closer look

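For 2 members 1 array lay far from the other 3 of its group, by the gap to the nearest value over the range of the group. Efnb1 read 7.29 in mutant 4, against 7.59 to 7.64 in the other mutants. Without mutant 4 the difference was 0.53 (limma, adjusted p = 9.47e-04). Efnb2 read 10.21 in control 2, against 10.10 to 10.11 in the other controls. Without control 2 the difference was 0.07 (limma, adjusted p = 0.817). These are 2 of 14 groups tested, and chance flags about 1 in 20.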

How the results depend on the processing

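The fall of Ephb1 and its side of the threshold held in all 21 alternatives, with differences of -0.82 to -0.40, and the rise of Efnb1 in 20, the exception being unmoderated variances (0.45, adjusted p = 0.0967). Ephb6 kept a difference of -0.31 but lost its call with all probe sets tested (adjusted p = 0.130), with unmoderated variances (0.171) and at a threshold of 0.01; with inferred sex it was at -0.32 and lost it too (adjusted p = 0.0710). Leaving out 1 array gave -0.35 to -0.25 for Ephb6 and 584 to 814 called genes. The count of members lower was 1 in those 4 settings and 1 to 2 with 1 array left out, while the count higher was 0 with unmoderated variances. All genes called numbered 827, against 518 with all probe sets, 249 with unmoderated variances and 447 at 0.01. No label says what a replicate number shares. Deviations of same-numbered arrays correlated at 0.06 to 0.30, 1 pair of 4 under 0.1, so the numbers were not taken as pairs, although 6 of 8 arrays correlated best with their own number, a hint from the data and not from the design. With the replicate block 987 genes were called and 2 members were higher, as Efnb3 passed (0.31, adjusted p = 0.0451). Pathway lists held 1 called turnover gene after quantile normalization. Without the dimmest 50% of genes 2 reverse, 1 synaptic and 1 turnover genes were called, and at a threshold of 0.1 the counts were 1 forward, 2 reverse, 2 synaptic and 1 turnover. With the block 1 forward and 2 synaptic genes were called. The EphA list held 0 called genes with all probe sets, 0 with unmoderated variances (as did the reverse list), and 1 each at 0.01 and with inferred sex. With 1 array left out it held 1 to 3, and the forward, synaptic and turnover lists held 0 to 1. Of 733 checks of 35 other genes and markers, 637 kept their side of the threshold, passed or not, 85 lost a call, 11 gained one and 0 reversed. Why these calls moved was not tested. Ephb3 and Ephb4 were the dimmest members, with group means of 5.41 to 5.60, above the floor of 4.31. Whether their dimness shrank their differences was not tested.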

Other observations

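In the pathway lists 4 genes had an adjusted p between 0.05 and 0.1, and are named here after their values were seen. Cblb, an E3 ubiquitin ligase of the turnover list that acts on receptor tyrosine kinases, differed by -0.28 (SE 0.08, limma, adjusted p = 0.0774). Grip1, a PDZ protein that binds ephrin-B tails, differed by 0.21 (SE 0.06, adjusted p = 0.0822). Grm5, a metabotropic glutamate receptor, differed by 0.44 (SE 0.13, adjusted p = 0.0915). Tiam1, an exchange factor for Rac that binds EphB2, differed by -0.44 (SE 0.13, adjusted p = 0.0946).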
